A study of Arabidopsis thaliana with 12 samples.

Results

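The pollen receptor kinases PRK1 to PRK8 of Arabidopsis thaliana were described across RNA-seq libraries of ask1 mutant flowers, which carry a Ds transposon insertion in ASK1, and of control flowers. The members were chosen by locus identifier, as PRK1 (AT5G35390), PRK2 (AT2G07040), PRK3 (AT3G42880), PRK4 (AT3G20190), PRK5 (AT1G50610), PRK6 (AT5G20690), PRK7 (AT4G31250) and PRK8 (AT1G72460). All 8 were found among the 33602 genes of the count tables, and all 8 passed the filter on low counts that left 21890 genes for testing. The names PRK7 and PRK8 are those under which the loci were grouped here, since RefSeq gives these loci no symbol. The libraries came from 3 genotypes, each sampled as floral buds and as open flowers. They were ask1 (the Ds insertion line), ASK1 WT (plants with the wild-type allele) and Col-0, and every library had the strain label Col-0. There were 2 libraries per genotype and tissue, 12 in all, from total RNA of primary inflorescences taken 5 h after dawn under 16 h of light and 8 h of darkness. The title of the series calls the mutant fertile. Nothing in the labels ties replicates to different plants or gives the plants per sample, so each p-value measures only the spread between these samples.

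PRKs are receptor-like kinases with short leucine-rich repeat ectodomains, and they sit in the plasma membrane of the pollen tube. LURE1 peptides secreted by the synergid cells beside the egg attract the tube, and PRK6 is a receptor for them that works together with PRK1, PRK3 and PRK8. Inside the tube, PRKs bind RopGEF proteins, which activate the ROP GTPases that set the growing tip. ASK1 is a plant SKP1 protein, the adaptor that joins an F-box protein to the cullin of a ubiquitin ligase.

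The 8 genes lie on 5 chromosomes and have exon lengths of 2204 to 2781 bases in the TAIR10.1 annotation. None of the 50-base stretches of their exons occurs elsewhere in the TAIR10.1 genome, so no exact match of that length is shared with another locus. Copies that differ by some bases were not searched for. PRK1 overlaps AT5G35400 and PRK7 overlaps AT4G31248 on the opposite strand. PRK4 overlaps AT3G20200 on the same strand. The strand setting of the counts is unknown here, so the values of PRK1 and PRK7 are uncertain to that extent. How reads in the overlap of PRK4 with AT3G20200 were assigned is also unknown, whatever the strand setting. PRK8 lies 1.23 Mb and PRK5 lies 9.77 Mb from ASK1 on chromosome 1.

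Promoter sequences of 4 members are shown because these members behaved differently in the counts. PRK2 was the most abundant and fell in ask1, PRK3 and PRK8 fell in ask1 but did not rise in open flowers of ASK1 WT, and PRK7 did not fall. Each sequence is the 300 bases upstream of the annotated start in TAIR10.1 (RefSeq), written in the direction of transcription. Capitals mark AGAAA or its reverse complement TTTCT, a motif known from the pollen promoter of LAT52 in tomato, and in PRK3 also a MEF2-type CArG box, the kind of site that MIKC* MADS proteins of pollen bind.
PRK2 (chr2:2916116-2916415, plus strand): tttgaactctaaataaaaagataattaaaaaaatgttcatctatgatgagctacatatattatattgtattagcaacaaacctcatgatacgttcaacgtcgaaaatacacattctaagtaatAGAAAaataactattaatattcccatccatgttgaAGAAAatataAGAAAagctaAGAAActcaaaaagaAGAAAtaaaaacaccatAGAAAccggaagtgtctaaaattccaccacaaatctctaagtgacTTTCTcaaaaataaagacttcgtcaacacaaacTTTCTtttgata
PRK3 (chr3:14954063-14954362, plus strand): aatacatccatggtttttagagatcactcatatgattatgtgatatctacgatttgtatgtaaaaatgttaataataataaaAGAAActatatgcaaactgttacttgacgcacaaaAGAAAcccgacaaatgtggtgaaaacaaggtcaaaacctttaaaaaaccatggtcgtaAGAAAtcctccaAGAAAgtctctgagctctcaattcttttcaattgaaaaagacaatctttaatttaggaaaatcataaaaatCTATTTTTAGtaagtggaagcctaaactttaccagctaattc
PRK7 (chr4:15181938-15182237, minus strand): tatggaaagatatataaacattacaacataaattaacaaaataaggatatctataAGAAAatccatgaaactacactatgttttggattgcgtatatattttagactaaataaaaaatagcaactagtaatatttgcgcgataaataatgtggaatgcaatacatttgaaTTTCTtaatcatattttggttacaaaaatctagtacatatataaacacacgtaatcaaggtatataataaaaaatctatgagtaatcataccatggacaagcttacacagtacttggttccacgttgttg
PRK8 (chr1:27279041-27279340, plus strand): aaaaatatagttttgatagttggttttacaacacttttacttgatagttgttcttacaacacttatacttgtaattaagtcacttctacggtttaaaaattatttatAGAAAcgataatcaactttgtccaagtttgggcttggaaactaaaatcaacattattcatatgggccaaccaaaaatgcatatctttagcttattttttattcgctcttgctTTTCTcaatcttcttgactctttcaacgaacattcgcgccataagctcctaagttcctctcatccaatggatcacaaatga
Searched on both strands, with overlapping matches counted, AGAAA occurred 8 times upstream of PRK2, 4 times upstream of PRK3, and 2 times upstream of PRK7 and of PRK8. It was found in 87.3% of 27443 promoters of the same length, with a median of 2 matches. PRK4 had no match in this window. The MEF2-type CArG box was found upstream of PRK3 alone among the 8, at 42 bases before the annotated start, and 2.53% of all promoters held one. A further motif, GTGA, which is known from pollen genes of tobacco, was found in 83.2% of promoters and upstream of 7 of the 8 members, PRK7 being the exception. It is not marked in the sequences.

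Depth was 13780265 to 23426466 counts in genes per library. By plain library totals, 3 counts corresponded to 0.128 to 0.218 CPM (counts scaled to library size). The CPM of genes use TMM-scaled library sizes, except where plain totals are named. ASK1 itself held 10.1 and 29.1 CPM in ask1 buds and 50.9 and 29.6 CPM in ask1 open flowers, and between 247 and 310 CPM in the 8 control libraries. Among the libraries, ask1 buds replicates 1 and 2 differed in their pollen transcripts, with summed levels of 20 pollen markers of 95 and 284 TPM (counts scaled to exon length and library size). In ask1 open flowers replicate 1, levels fell with exon length (rank correlation -0.446 over genes, against 0.0297 to 0.128 in the other libraries). Changes below are log2 fold changes ± SE from edgeR with 2 libraries per group. A gene is said to rise or fall where the quasi-likelihood p, adjusted by Benjamini-Hochberg over all 21890 genes, was under 0.05.

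In the control genotypes the family was led by PRK2. On the TPM scale, which corrects for exon length, PRK2 averaged 285 ± 26.4 TPM in ASK1 WT open flowers and 327 ± 10.8 TPM in Col-0 open flowers (SD, n = 2 each). PRK4 came next, at 111 ± 6.14 TPM in ASK1 WT and 123 ± 4.3 TPM in Col-0 open flowers. PRK5, PRK3 and PRK6 followed in that order in open flowers of both controls, and their ranges did not touch. PRK6, the LURE1 receptor, averaged 10.5 ± 0.384 TPM in ASK1 WT and 11.4 ± 0.424 TPM in Col-0 open flowers. PRK1 and PRK8 were lower in ASK1 WT open flowers, at 3.89 ± 0.288 and 4.62 ± 0.264 TPM. PRK7 was the lowest member in open flowers of both controls, at 0.629 ± 0.0437 TPM in ASK1 WT and 0.521 ± 0.017 TPM in Col-0.

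The order differed in buds of the controls. PRK2 and PRK4 again came first, with 75.9 ± 4.38 and 22.2 ± 1.49 TPM in ASK1 WT buds. PRK8 came next, at 10.7 ± 1.23 TPM in ASK1 WT buds and 8.77 ± 2.25 TPM in buds of Col-0. In ASK1 WT buds the ranges of PRK3 and PRK5 overlapped, as did those of PRK8 and PRK3 in Col-0 buds. PRK1 and PRK7 were lowest and their ranges overlapped in buds of both controls.

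**Figure D1:**
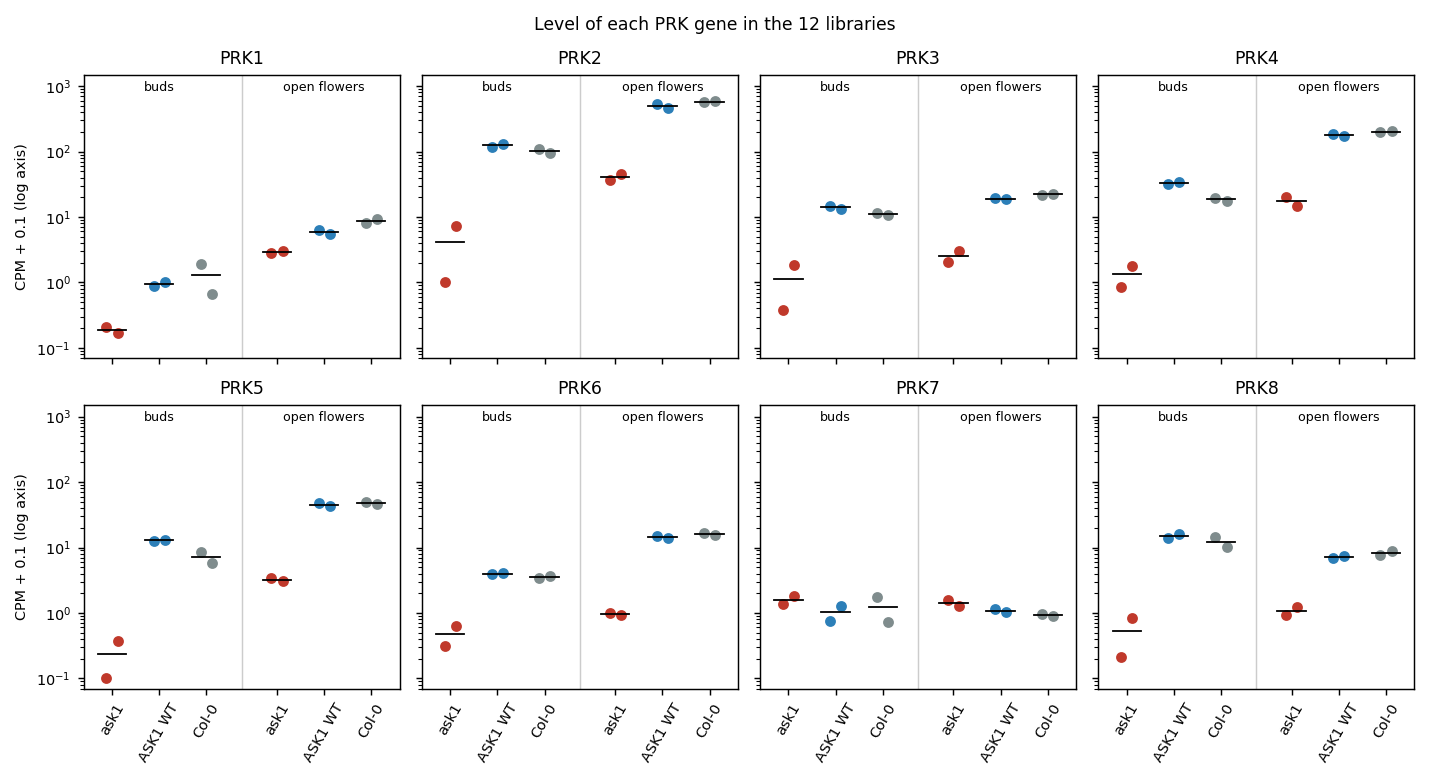
Level of each PRK gene in the 12 libraries, as CPM + 0.1 on a log axis, with each point a library and each bar the mean of 2 libraries. In each panel buds are left and open flowers right, and the ask1 points lie below both controls of the same tissue in every panel except that of PRK7.

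In ask1 buds, 7 of the 8 genes fell against ASK1 WT buds, with PRK5 falling furthest and PRK7 not passing the test. Of all tested genes, 17.0% fell in that comparison. The median change of the 8 was -4.33, against -0.05 over all genes tested. As these are whole buds, fewer pollen cells and less RNA per cell cannot be told apart.

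PRK2, which binds RopGEF12 and alters the polarity of tube growth when overexpressed, had 0.927 and 7.11 CPM in ask1 buds, 119 and 128 CPM in ASK1 WT buds and 109 and 95.6 CPM in Col-0 buds. The ask1 libraries lay far below all 4 controls but differed from each other by a larger ratio than the control libraries did. The change against ASK1 WT was -4.99 ± 0.57 (edgeR quasi-likelihood, Benjamini-Hochberg adjusted p = 9.32e-05). PRK4 had 0.764 and 1.69 CPM in ask1 buds, 32 and 34.7 CPM in ASK1 WT buds and 19.7 and 17.5 CPM in Col-0 buds. No ask1 library reached a control. The change against ASK1 WT was -4.80 ± 0.27 (edgeR adjusted p = 2.48e-06).

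PRK5 had 0 and 0.271 CPM in ask1 buds, that is 0 and 4 counts, with 12.5 and 12.9 CPM in ASK1 WT buds and 8.36 and 5.66 CPM in Col-0 buds. The groups did not overlap, and the change against ASK1 WT was -6.63 ± 0.45 (edgeR adjusted p = 4.87e-06). The count of PRK5 was 105-fold lower in ask1 than in ASK1 WT buds, with a 95% counting interval of 40.9 to 389. Intervals and floors here and below cover counting error only.

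Among the genes of LURE1 sensing, PRK6 had 0.218 and 0.542 CPM in ask1 buds, 3.83 and 3.93 CPM in ASK1 WT buds and 3.31 and 3.58 CPM in Col-0 buds. Both ask1 values lay far below the control values. PRK6 changed by -3.39 ± 0.30 against ASK1 WT (edgeR adjusted p = 1.94e-05). PRK3 had 0.273 and 1.76 CPM in ask1 buds, 14.7 and 13.1 CPM in ASK1 WT buds and 11.4 and 10.5 CPM in Col-0 buds, and changed by -3.85 ± 0.43 (edgeR adjusted p = 7.65e-05). PRK8 had 0.109 and 0.745 CPM in ask1 buds, 14 and 16.2 CPM in ASK1 WT buds and 14.4 and 10.1 CPM in Col-0 buds, and changed by -5.22 ± 0.43 (edgeR adjusted p = 1.3e-05). For PRK3 and PRK8, as for PRK2, the second ask1 library was the higher one.

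PRK1 was low in buds of every genotype. It had 2 and 1 counts in ask1 buds, 12 and 18 counts in ASK1 WT buds and 32 and 10 counts in Col-0 buds. The count ratio put ASK1 WT 9.52-fold above ask1, with a 95% interval of 2.96 to 48.7, and the edgeR test passed (adjusted p = 0.00983). The call was lost without ASK1 WT buds replicate 2, ask1 buds replicate 1 or ask1 buds replicate 2, where the fitted change was -3.01, -3.53 and -2.90 (over the alternatives the adjusted p ranged from 0.00111 to 0.062). Its opposite-strand neighbour AT5G35400 was at 0.29 ± 0.19 in ask1 against ASK1 WT buds and at 0.52 ± 0.19 in open flowers, and did not pass (edgeR adjusted p = 0.308 and 0.0608). PRK7 had 1.25 and 1.69 CPM in ask1 buds, 0.649 and 1.19 CPM in ASK1 WT buds and 1.63 and 0.616 CPM in Col-0 buds. The ask1 libraries were above both ASK1 WT libraries and overlapped Col-0, and the difference from ASK1 WT, 0.64 ± 0.46, did not pass (edgeR adjusted p = 0.366).

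The size of these falls depended on which ask1 bud library was used. Without ask1 buds replicate 2 the changes against ASK1 WT were -7.04 for PRK2, -5.63 for PRK3, -5.43 for PRK4, -4.11 for PRK6 and -7.02 for PRK8. PRK5 was then fitted at -10.81 from a library with 0 counts, which is no bound. Without ask1 buds replicate 1, PRK2 was at -4.11, PRK3 at -2.97, PRK5 at -5.52 and PRK8 at -4.33. All of these calls held. When only the libraries of the comparison were fitted, PRK2 was at -4.96 and lost its call (adjusted p = 0.067, where the alternatives ranged from 2.99e-12 to 0.067).

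In ask1 open flowers, 7 of the 8 genes, all but PRK7, fell against ASK1 WT open flowers, where 15.9% of all tested genes fell. The median change of the 8 was -3.15, against 0.01 over all genes tested. PRK6 fell furthest and PRK1 least.

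PRK6 had 0.899 and 0.825 CPM in ask1 open flowers, 14.9 and 14.1 CPM in ASK1 WT open flowers and 16.4 and 15.5 CPM in Col-0 open flowers. The libraries within each genotype agreed closely and the ask1 level was far below both controls. PRK6 changed by -4.07 ± 0.24 against ASK1 WT (edgeR adjusted p = 2.55e-06). PRK5 had 3.28 and 2.94 CPM in ask1 open flowers, 47.4 and 42.6 CPM in ASK1 WT open flowers and 48.7 and 45.4 CPM in Col-0 open flowers, and changed by -3.85 ± 0.26 (edgeR adjusted p = 4.51e-06). PRK2 had 36 and 44.8 CPM in ask1 open flowers, 531 and 464 CPM in ASK1 WT open flowers and 567 and 591 CPM in Col-0 open flowers, and changed by -3.62 ± 0.51 (edgeR adjusted p = 0.000446). In none of these genes did ask1 overlap a control.

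PRK4 had 19.9 and 14.7 CPM in ask1 open flowers, 186 and 171 CPM in ASK1 WT open flowers and 197 and 205 CPM in Col-0 open flowers. It changed by -3.36 ± 0.22 against ASK1 WT (edgeR adjusted p = 3.62e-06). Its overlapping neighbour AT3G20200 fell too, by 2.25 ± 0.23 on the log2 scale against ASK1 WT open flowers and by 1.26 ± 0.23 against ASK1 WT buds. PRK3 had 1.93 and 2.94 CPM in ask1 open flowers, 19.2 and 18.4 CPM in ASK1 WT and 21.7 and 22.4 CPM in Col-0, and changed by -2.94 ± 0.37 (edgeR adjusted p = 0.000218). PRK8 had 0.835 and 1.12 CPM in ask1 open flowers, 6.7 and 7.23 CPM in ASK1 WT and 7.51 and 8.73 CPM in Col-0, and changed by -2.82 ± 0.39 (edgeR adjusted p = 0.000387).

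PRK1 retained the most of its level in ask1 open flowers among the genes that fell. It had 2.7 and 2.89 CPM in ask1, 6.12 and 5.48 CPM in ASK1 WT and 8.05 and 9.29 CPM in Col-0. The 3 genotypes did not overlap. The change against ASK1 WT was -1.05 ± 0.34 (edgeR adjusted p = 0.0366), and it did not pass without any 1 of the 4 ASK1 WT libraries of either tissue or with only the compared libraries fitted (changes of -1.21 to -1.05, adjusted p = 0.0562 to 0.143, where all alternatives ranged from 0.0067 to 0.143). PRK7 had 1.48 and 1.18 CPM in ask1 open flowers, 1.03 and 0.933 CPM in ASK1 WT and 0.848 and 0.805 CPM in Col-0. The ask1 libraries were the highest, and the difference from ASK1 WT, 0.42 ± 0.46, did not pass (edgeR adjusted p = 0.513).

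**Figure D2:**
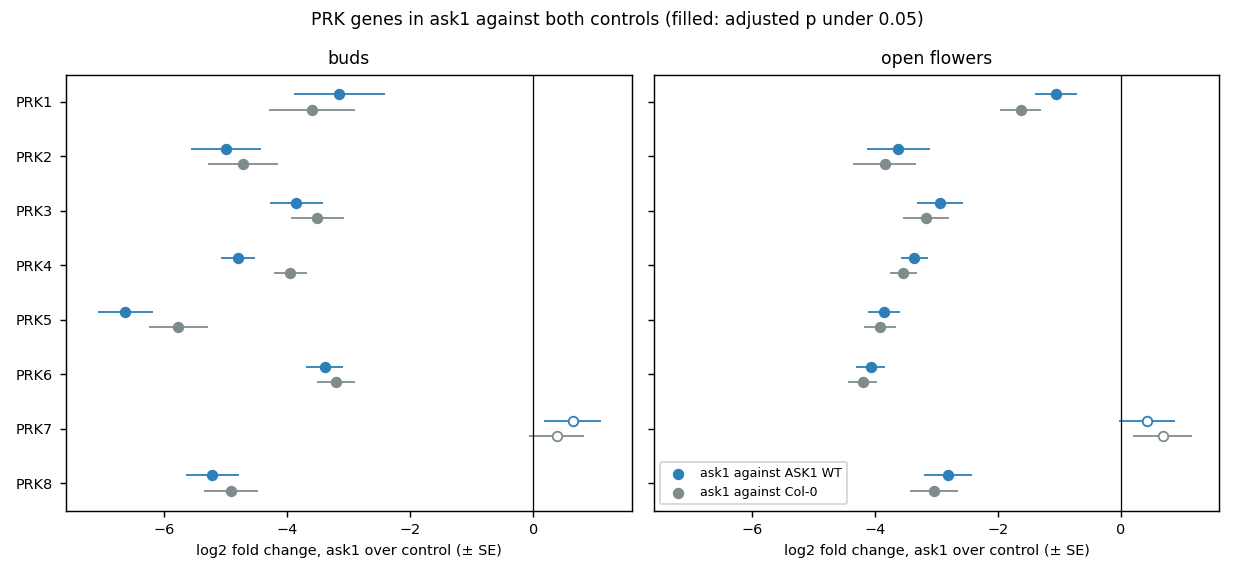
Log2 fold change of each PRK gene in ask1 over ASK1 WT and over Col-0, in buds (left) and open flowers (right), with bars of 1 SE and filled points for an edgeR adjusted p under 0.05. All genes except PRK7 lie left of 0 in both tissues, from -6.63 for PRK5 in buds to -1.05 for PRK1 in open flowers against ASK1 WT.

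Col-0 gave a second reference that shares the ask1 libraries with the comparisons above. Against Col-0 buds, 7 of the 8 fell in ask1, where 14.1% of all tested genes fell, and against Col-0 open flowers 7 fell, where 14.3% did. The median changes were -3.78 and -3.35. In buds the values were -3.60 ± 0.70 for PRK1, -4.72 ± 0.57 for PRK2, -3.95 ± 0.27 for PRK4, -5.77 ± 0.48 for PRK5 and -4.92 ± 0.44 for PRK8. In open flowers they were -1.63 ± 0.33 for PRK1, -3.84 ± 0.51 for PRK2, -3.54 ± 0.22 for PRK4, -3.92 ± 0.26 for PRK5, -4.20 ± 0.24 for PRK6 and -3.04 ± 0.39 for PRK8. PRK7 stood at 0.38 ± 0.45 in buds and 0.68 ± 0.48 in open flowers and did not pass (edgeR adjusted p = 0.617 and 0.319).

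The bud values against Col-0 moved with single libraries as well. PRK1 was at -2.53 without Col-0 buds replicate 1 and at -4.20 without Col-0 buds replicate 2. Without ask1 buds replicate 2, PRK2 was at -6.77, PRK3 at -5.29, PRK4 at -4.59, PRK6 at -3.94 and PRK8 at -6.72. PRK5 was fitted at -9.95 from a library with 0 counts. With only the compared libraries fitted, PRK2 was at -4.69 and lost its call (edgeR adjusted p = 0.0797, where the alternatives ranged from 6.21e-12 to 0.0797). Without ask1 buds replicate 1, PRK2 was at -3.84, PRK3 at -2.63, PRK5 at -4.65 and PRK8 at -4.02.

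The 2 control genotypes were compared to see how far the wild-type allele line matched Col-0. In ASK1 WT against Col-0 buds, 0 of the 8 genes passed the edgeR test, where 0.320% of all genes changed, although 2 had an unadjusted p under 0.05 and DESeq2 called 2. These were PRK4, at 0.84 ± 0.20 (edgeR adjusted p = 0.156), and PRK5, at 0.86 ± 0.24 (edgeR adjusted p = 0.225). In both genes the ASK1 WT bud libraries lay above the Col-0 bud libraries. Both were called when only the compared libraries were fitted and without ask1 open flowers replicate 1, and PRK4 also without ask1 open flowers replicate 2. In ASK1 WT against Col-0 open flowers, 0 of 8 passed the edgeR test, where 0.0411% of all genes changed. There 0 had an unadjusted p under 0.05 and DESeq2 called 0, with changes between -0.58 ± 0.31 for PRK1 and 0.25 ± 0.49 for PRK7.

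Set against buds, open flowers held more of most members. In Col-0, 6 of the 8 genes rose in open flowers (18.8% of all tested genes rose), in ASK1 WT 5 rose (18.4%) and 1 fell (16.9%), and in ask1 5 rose (22.2%). PRK1, PRK2, PRK4, PRK5 and PRK6 rose in all 3 genotypes, PRK3 rose in Col-0, and PRK8 fell in ASK1 WT.

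PRK4 was at 3.85 ± 0.28 in ask1, 2.42 ± 0.21 in ASK1 WT plants and 3.44 ± 0.22 in Col-0, where it had the widest stage difference of the family (edgeR adjusted p = 7.07e-07). PRK5 was at 4.60 ± 0.55 in ask1, 1.82 ± 0.22 in ASK1 WT plants and 2.75 ± 0.23 in Col-0. PRK2 was at 3.38 ± 0.55 in ask1, 2.01 ± 0.47 in ASK1 WT plants and 2.50 ± 0.48 in Col-0. The highest of these values in each gene was that of ask1. PRK1 counts were 30.8-fold higher in ask1 open flowers than in ask1 buds, where only 3 counts were read (95% interval 10.2 to 152), and the gene rose by 2.74 ± 0.39 in ASK1 WT plants and 2.87 ± 0.37 in Col-0. PRK6 departed from this order, with 1.22 ± 0.38 in ask1, 1.90 ± 0.20 in ASK1 WT plants and 2.21 ± 0.20 in Col-0.

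PRK8 was the bud-weighted member of the controls. It was at -1.12 ± 0.29 in ASK1 WT (edgeR adjusted p = 0.0122) and at -0.59 ± 0.29 in Col-0, where it did not pass (edgeR adjusted p = 0.151). In ask1 it stood at 1.29 ± 0.59 and did not pass (edgeR adjusted p = 0.108). PRK3 was at 1.35 ± 0.50 in ask1, 0.44 ± 0.31 in ASK1 WT plants and 1.01 ± 0.31 in Col-0, and passed in Col-0 (edgeR adjusted p = 0.0271). PRK7 stood between -0.44 ± 0.49 in Col-0 and 0.08 ± 0.48 in ASK1 WT.

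Several of these stage calls depended on the libraries or the settings used. PRK6 in ask1 lost its call without ask1 buds replicate 1 (0.66), without ask1 open flowers replicate 1 (1.12), without either open-flower library of ASK1 WT or of Col-0 (1.15), with DESeq2 (adjusted p = 0.0697) and with only the compared libraries (1.13), and its adjusted p ranged from 0.0137 to 0.39 over the alternatives. PRK2 in ASK1 WT lost it without ASK1 WT buds replicate 1 (1.96) or replicate 2 (2.06). PRK8 in ASK1 WT lost it without ASK1 WT buds replicate 2 (adjusted p = 0.0905) or ASK1 WT open flowers replicate 1 or 2 (adjusted p = 0.105 and 0.0761, where the alternatives ranged from 6.64e-06 to 0.105). PRK3 in Col-0 lost it without any 1 of the 4 Col-0 libraries (adjusted p = 0.0801 to 0.153, where the alternatives ranged from 1.96e-06 to 0.153). With only the libraries of the comparison fitted, PRK3 rose in ASK1 WT (0.44) and PRK8 fell in Col-0 (-0.58). Without ask1 buds replicate 2, PRK3 and PRK8 rose in ask1 too (3.13 and 3.09), and PRK2 was at 5.43, PRK4 at 4.49 and PRK6 at 1.94. PRK5 was then fitted at 8.77 from a bud library with 0 counts. With ask1 buds replicate 1 left out, PRK2 was at 2.50 and PRK5 at 3.48. In Col-0, PRK1 was at 3.94 without Col-0 buds replicate 1 and at 2.27 without Col-0 buds replicate 2.

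**Figure D3:**
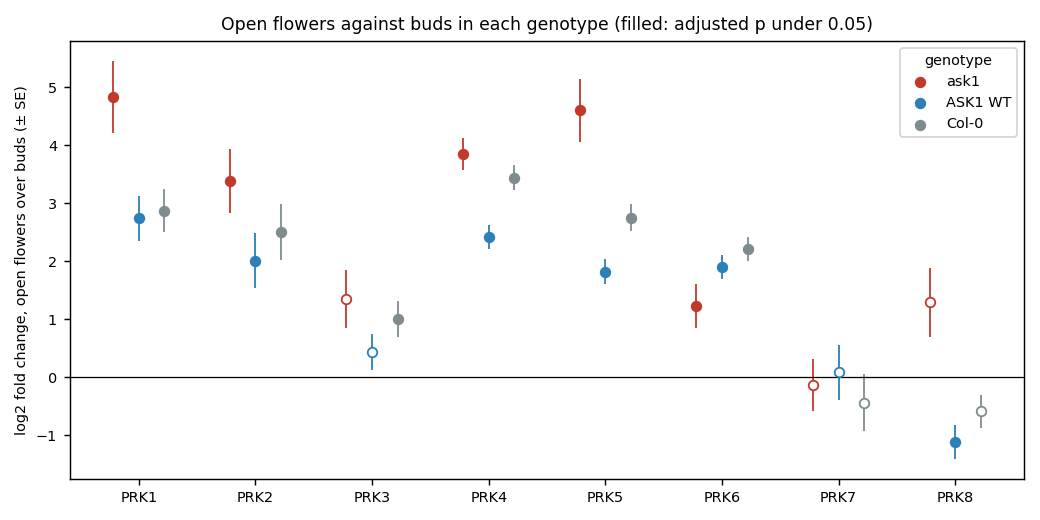
Log2 fold change of each PRK gene in open flowers over buds, by genotype, with bars of 1 SE and filled points for an edgeR adjusted p under 0.05. PRK1, PRK2, PRK4, PRK5 and PRK6 lie above 0 in all genotypes, whereas PRK8 lies below 0 in ASK1 WT (-1.12) and Col-0 (-0.59) and above it in ask1 (1.29).

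Whether the ask1 difference itself changed with stage was tested as an interaction against ASK1 WT, open flowers minus buds. The interaction was above 0 and passed for 2 of the 8, PRK4 at 1.43 ± 0.35 (edgeR adjusted p = 0.0359) and PRK5 at 2.78 ± 0.67 (edgeR adjusted p = 0.0362), where 4.45% of all tested genes passed in that direction. With Col-0 in place of ASK1 WT, an alternative added after the data were seen, 0 of the 8 passed by edgeR (2.80% of all tested genes passed above 0), with 3 at an unadjusted p under 0.05 and 1, PRK8, called by DESeq2. PRK4 was then at 0.42 ± 0.35 (edgeR adjusted p = 0.507) and PRK5 at 1.85 ± 0.71 (edgeR adjusted p = 0.16). The interaction of PRK4 and PRK5 thus passed against ASK1 WT and did not pass against Col-0. PRK8 stood at 2.40 ± 0.65 (edgeR adjusted p = 0.0526) and PRK6 at -0.68 ± 0.46, and neither passed. PRK1 did not pass either (edgeR adjusted p = 0.162). The calls depended on the libraries used. With only the compared libraries fitted 0 of 8 passed by edgeR, with 4 at an unadjusted p under 0.05, and leaving out 1 library at a time gave 0 to 5. The 5 were reached without ask1 buds replicate 2, where PRK4 was at 2.07 and PRK5, fitted from a bud library with 0 counts, at 6.95. With ask1 buds replicate 1 left out these were at 0.93 and 1.66 and did not pass. Either call was also lost without any 1 of the ASK1 WT libraries or of the Col-0 open flower libraries, and PRK4 without either Col-0 bud library.

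The family as a whole held 2.54 and 9.4 TPM in ask1 buds, 126 and 136 TPM in buds of ASK1 WT and 110 and 92 TPM in buds of Col-0. Open flowers held 35.4 and 46 TPM in ask1, 480 and 430 TPM in ASK1 WT and 506 and 527 TPM in Col-0. The summed level was thus lower in every ask1 library than in any control library of its tissue. PRK2 made up 57.9% ± 0.194 of it in ASK1 WT buds and between 62.5% and 63.4% in the other control groups. In ask1 it made up 35.9% ± 17.8 in buds and 55.8% ± 6.38 in open flowers (SD, n = 2).

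The makeup of the pool shifted most in ask1 buds. PRK7 took 24% ± 15.8 of the summed TPM there, against 0.477% ± 0.179 for buds of ASK1 WT and 0.743% ± 0.402 for buds of Col-0. The ask1 bud libraries held only 67 and 205 PRK counts, of which 23 and 25 were of PRK7. The level of PRK7 itself did not pass against ASK1 WT buds (0.64 ± 0.46, edgeR adjusted p = 0.366). PRK1 took 4.52% ± 0.0405 in ask1 open flowers, against 0.854% ± 0.00306 for ASK1 WT and 1.11% ± 0.0843 in Col-0 open flowers. PRK8 took 8.18% ± 0.492 in buds of ASK1 WT and 8.63% ± 1.17 in buds of Col-0, and about 1% in open flowers of both (1.02% ± 0.137 and 1.03% ± 0.0841).

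**Figure D4:**
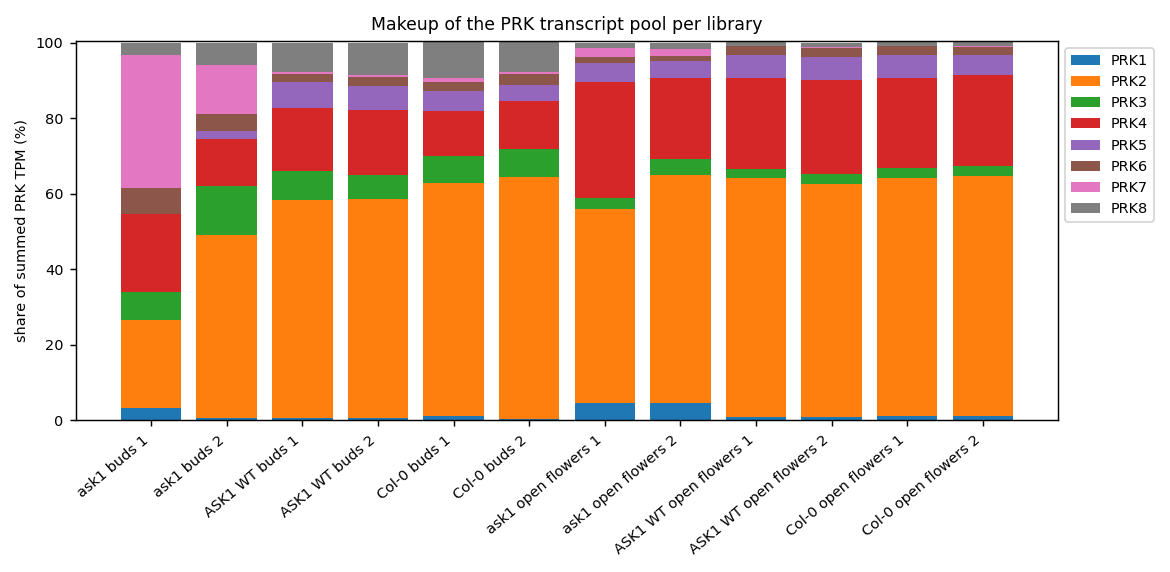
Share of each PRK gene in the summed PRK TPM of each library, in percent from 0 to 100. PRK2 is the widest band in every library but the first ask1 bud library, where PRK7 is wider, and the PRK8 band is wider in buds than in open flowers of both controls.

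Pollen transcripts moved with the family. The 20 markers of the pollen vegetative cell, which include the pectin methylesterase gene VGD1 and the sugar transporter gene STP11, summed to 95 and 284 TPM in ask1 buds, 2878 to 2997 TPM in ASK1 WT buds and 2628 to 2785 TPM in Col-0 buds. Across open flowers they summed to 563 to 736 TPM in ask1, 5132 to 5698 TPM in ASK1 WT and 6102 to 6260 TPM in Col-0. The PRK sum was 2.67% and 3.31% of the marker sum in ask1 buds, 4.37% and 4.54% in buds of ASK1 WT and 3.94% and 3.5% in buds of Col-0. For open flowers it was 6.29% and 6.25% in ask1, 8.43% and 8.39% in ASK1 WT plants and 8.29% and 8.42% in Col-0. Without PRK7 the PRK sum was 1.73% and 2.88% of the marker sum in ask1 buds, 4.36% and 4.51% in buds of ASK1 WT and 3.9% and 3.49% in buds of Col-0. The ask1 ratios were the lowest in each tissue, with or without PRK7. The marker sum is unweighted, so its most abundant genes count most. Of the 20 markers, VGD1 and VGDH1 had the highest mean levels over the 12 libraries (1707 and 836 CPM). Whether the ratios hold with the markers weighted equally was not tested. The part of the pollen content in the PRK changes was not tested.

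Members differed when set against the same markers. PRK6 stood at 1.85 and 1.54 TPM per 1000 marker TPM in ask1 buds, above 1.02 in both ASK1 WT bud libraries and 0.931 and 1.06 in Col-0 buds. These ask1 bud values rest on 4 and 8 counts of PRK6, with 95% counting intervals of 1.09 to 10.2 and 3.45 to 15.8 counts. Whether the ratio differs from the controls was not tested. For open flowers PRK6 stood at 1.02 and 0.876 in ask1, below 1.89 and 1.99 in ASK1 WT and 1.91 and 1.77 in Col-0. PRK8 stood at 0.848 and 1.95 in ask1 buds, from 2 and 11 counts, against 3.43 and 3.87 in ASK1 WT and 3.72 and 2.73 in Col-0 buds. PRK8 in open flowers was at 0.866 and 1.09 in ask1, 0.778 and 0.937 in ASK1 WT and 0.804 and 0.916 in Col-0, and these ranges overlapped. PRK1 in open flowers was at 2.83 and 2.84 in ask1, 0.718 in both ASK1 WT libraries and 0.871 and 0.985 in Col-0. PRK1 was thus higher relative to the markers in ask1 open flowers. So was PRK7, at 1.48 and 1.11 in ask1, 0.116 in both ASK1 WT libraries and 0.0874 and 0.0814 in Col-0. Whether these ratios differ from the controls was not tested.

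Of the 20 vegetative-cell markers, 19 fell in ask1 against ASK1 WT buds and 17 fell and 1 rose in open flowers, with medians of -4.14 and -3.08. Of all tested genes 17.0% fell in buds, and 15.9% fell and 14.1% rose in open flowers. STP11 was at -5.93 ± 0.45 in buds and the calcium-dependent kinase gene CPK34, which overlaps a gene on the opposite strand, at -3.84 ± 0.27 in open flowers. The 1 that rose was NIP4;1, an aquaporin gene, which was at 0 counts in ASK1 WT open flowers (edgeR adjusted p = 0.0493). Against Col-0 open flowers this gene was at 3.31 ± 1.48 and did not pass (edgeR adjusted p = 0.124), while TIP1;3 rose there, at 1.46 ± 0.45 (edgeR adjusted p = 0.0356). STP6 was at 2.28 ± 0.89 against ASK1 WT and 2.11 ± 0.91 against Col-0 open flowers. It passed in neither (edgeR adjusted p = 0.0776 and 0.11). In open flowers 17 of the 20 markers were below 0 against either control. Of 6 tested male germline markers, 5 fell in buds and 3 in open flowers, with the sperm genes DAZ3 at -5.62 ± 0.48 and MGH3 at -4.26 ± 0.47 in buds. GEX2, another of the germline list, was at 0 counts in all libraries. In ask1 against ASK1 WT the 8 tapetum markers did not pass in either tissue by edgeR, with 0 at an unadjusted p under 0.05 and 0 by DESeq2. Against Col-0 buds 0 passed by edgeR, with 1 at an unadjusted p under 0.05 and 1 called by DESeq2. The tapetum markers summed to 935 to 1058 TPM in ask1 buds, 875 to 904 TPM in ASK1 WT buds and 734 to 975 TPM in Col-0 buds. In open flowers of every genotype they summed to under 1 TPM (0.0932 to 0.618 TPM). DYT1 and MS1 were at 0 counts in open flowers of all genotypes. Of 5 photosynthesis markers, 0 passed by edgeR in ask1 against ASK1 WT buds (0 at an unadjusted p under 0.05, 0 by DESeq2) and 1 rose in open flowers, PSAD1 at 0.57 ± 0.16. Against Col-0 open flowers PSAD1 was at 0.55 ± 0.16 and RBCS1A at 0.51 ± 0.16, and both passed (edgeR adjusted p = 0.0244 and 0.0354).

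The ligands showed another pattern. The 5 LURE1 genes, expressed in synergids, were at 0 counts in ask1 and Col-0 buds, and 3 of them were at 0 in ASK1 WT buds. In open flowers they summed to 24.2 to 37.1 TPM in ask1, 10.9 to 15.3 TPM in ASK1 WT and 11.4 to 11.6 TPM in Col-0. Levels in ask1 open flowers replicate 1 fell with exon length (rank correlation -0.446 over genes). The part of this trend in the LURE1 values below and above was not tested. LURE1.3 and LURE1.5 rose in ask1 against ASK1 WT open flowers, at 2.09 ± 0.60 (edgeR adjusted p = 0.035) and 2.13 ± 0.48 (edgeR adjusted p = 0.0136), although DESeq2 called 0 of the 5. In that comparison 14.1% of all tested genes rose. Against Col-0 open flowers LURE1.3 was at 1.95 ± 0.61 (edgeR adjusted p = 0.0499) and LURE1.4 at 1.35 ± 0.44 (edgeR adjusted p = 0.0496), and LURE1.5, at 1.12 ± 0.45, did not pass (edgeR adjusted p = 0.102). DESeq2 called 0 of the 5 there too. All 5 genes averaged under 1 CPM over the libraries. In ask1 against ASK1 WT buds 0 of 5 passed by edgeR, with 1 at an unadjusted p under 0.05 and 0 by DESeq2. Of 5 tested markers of the synergid and egg cell, 0 passed by edgeR in ask1 against ASK1 WT open flowers (0 at an unadjusted p under 0.05, 0 by DESeq2). Against Col-0 open flowers 1 of them fell, EC1.4 at -1.14 ± 0.36 (edgeR adjusted p = 0.0387), and DESeq2 called 0. Of all tested genes 14.3% fell there. With EC1.2, which was not tested, the 6 listed genes summed to 33.3 to 34.2 TPM in ask1, 30.7 to 40.2 TPM in ASK1 WT and 33.3 to 41.1 TPM in Col-0. In ask1 against ASK1 WT buds 2 of them fell, EC1.4 at -1.49 ± 0.43 and EC1.5, which was at 0 counts in ask1 buds. Of all tested genes 17.0% fell in that comparison, and 14.1% fell against Col-0 buds. Against Col-0 buds EC1.4 fell, at -1.44 ± 0.43 (edgeR adjusted p = 0.0366), and EC1.5 did not pass (edgeR adjusted p = 0.171). DESeq2 called 0 of the tested markers against Col-0 buds.

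Other receptors of the tube and the ROP module fell in part. Of 5 further guidance receptors, 3 fell in ask1 against ASK1 WT buds and 4 in open flowers, where 17.0% and 15.9% of all tested genes fell. The membrane-bound kinase genes LIP1 and LIP2 were at -4.74 ± 0.51 and -4.88 ± 0.41 in buds and at -3.35 ± 0.41 and -2.95 ± 0.33 in open flowers. AT5G45840 was at -2.24 ± 0.19 in buds and -3.17 ± 0.18 in open flowers. AT4G28650, which overlaps genes on the opposite strand, was at -0.80 ± 0.23 in open flowers.

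Of 13 tested RopGEF genes, 4 fell in buds and 5 in open flowers, beside 17.0% and 15.9% of all tested genes. ROPGEF12, whose product PRK2 binds, was at -4.82 ± 0.43 in buds and -3.58 ± 0.32 in open flowers, ROPGEF8 at -3.68 ± 0.38 and -2.80 ± 0.30, and ROPGEF9 at -3.89 ± 0.28 and -2.96 ± 0.24. ROPGEF11 was at -2.34 ± 0.24 and -1.63 ± 0.20 and overlaps a gene on the opposite strand. The list median was -0.18 in buds and -0.25 in open flowers, with 8 and 11 of the 13 below 0. Of 11 ROP GTPase genes, 5 fell in buds (17.0% of all tested genes fell), and 2 fell and 1 rose in open flowers (15.9% fell and 14.1% rose). The open-flower counts were near the shares over all genes. ROP1, the pollen tube GTPase, was at -2.60 ± 0.21 in buds and -1.72 ± 0.17 in open flowers, and it overlaps AT3G51310 on the opposite strand. ROP6 rose in open flowers, at 0.63 ± 0.15.

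Downstream of ROP, 7 of 9 effectors and regulators fell in buds, and 7 fell and 1 rose in open flowers, with medians of -2.76 and -2.41. Of all tested genes 17.0% fell in buds, and 15.9% fell and 14.1% rose in open flowers. RIC4, the 1 that rose, was at 1.12 ± 0.35 in open flowers (edgeR adjusted p = 0.0346). Against Col-0 open flowers RIC4 was at 0.98 ± 0.35 and did not pass (edgeR adjusted p = 0.063). RIC3, a ROP effector that acts on calcium and actin in the tube, was at -4.42 ± 0.31 in buds and -3.42 ± 0.30 in open flowers. RIC1 was at -5.01 ± 0.45 in buds, with an overlap on the opposite strand, and AGC1.7, a kinase of tube growth, at -4.40 ± 0.27. The MIKC* MADS genes of pollen fell as well, 5 of 5 in buds and 4 of 5 in open flowers, beside the same shares of all genes. AGL66 was at -4.35 ± 0.47 and -2.92 ± 0.46, and AGL104 at -3.21 ± 0.33 and -1.70 ± 0.34.

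**Figure D5:**
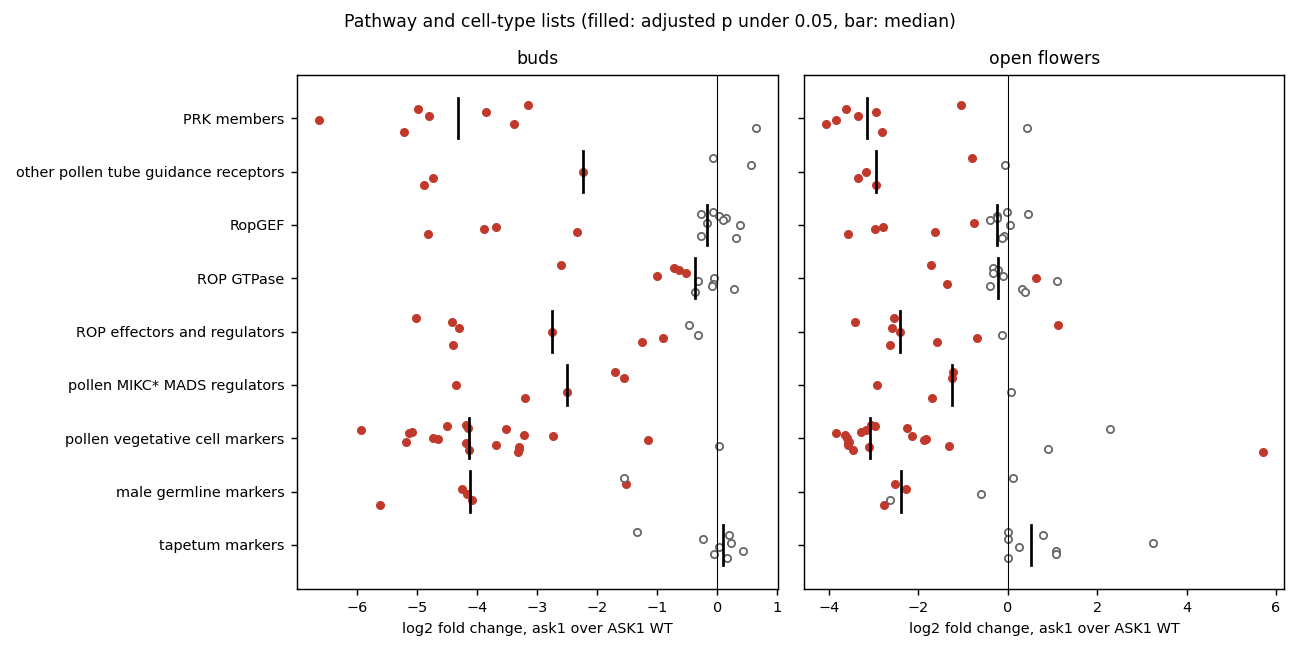
Log2 fold change in ask1 over ASK1 WT of the genes of the PRK family, its pathway lists and the pollen and tapetum markers, in buds (left) and open flowers (right), with filled points for an edgeR adjusted p under 0.05 and a bar at the median; points of genes at 0 counts in a group are fitted values only. The PRK median (-4.33 and -3.15) lies close to that of the vegetative-cell markers (-4.14 and -3.08), while the tapetum markers have a median of 0.09 in buds.

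The 3 genes outside the family most alike to each member were listed by the Pearson correlation of log2 CPM over the 12 libraries, which mix 3 genotypes and 2 tissues, so the values describe the same split of groups many times. PRK4 was most like CPK14, a calcium-dependent kinase gene (r = 0.999), and PRK2 was most like AT1G03050 (r = 0.999) and LIP1 (r = 0.998). PRK5 was most like AT5G27870 (r = 0.997), PRK6 like ICME-LIKE2 (r = 0.995) and PRK8 like AT5G07410 (r = 0.991). PRK3 was most like PERK12 (r = 0.993), and RbohH, an NADPH oxidase gene of the tube tip, was also among its 3 (r = 0.991). PRK1 was most like BLH6 (r = 0.979). For PRK7 the highest value was that of NF-YA2 (r = 0.861). AT1G03050 and ICME-LIKE2 overlap genes on the opposite strand.

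Within the family, PRK2 and PRK5 were alike (r = 0.993 over 12 libraries), as were PRK2 and PRK4 (r = 0.976). PRK8 was most like PRK3 (r = 0.936) and less like PRK1 (r = 0.455). PRK7 had a negative r with each of the other 7, between -0.559 and -0.282. It held only 10 to 29 counts per library and passed in no comparison.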

How the data were processed

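The authors deposited whole-number read counts, 1 table per library, from 150-nt paired-end reads of total RNA. Per the submitters' processing notes, Trimmomatic, TopHat2, HTSeq and the TAIR10 build were used. Their versions, settings and strandedness are not given in the sources used here. Set apart, the 5 summary lines (7.6% to 9.7% of each library) stayed out of library sizes and tests.

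Genes passing edgeR's expression filter (minimum count 10, minimum total 15), 21890 in all, were scaled by TMM and fitted over all 12 libraries with 1 mean per group (6 residual degrees of freedom). Contrasts were tested with edgeR 4.0.16 (limma 3.58.1, R 4.3.3) by quasi-likelihood F-tests, adjusted by Benjamini-Hochberg across the tested genes (threshold 0.05). An SE is the fold change divided by the square root of F. The fit was tested on simulated data. DESeq2 1.42.0 was an alternative. Exon lengths for TPM, gene models, names and promoters came from RefSeq TAIR10.1, in which 32835 of 33602 identifiers were found. Figures used Python 3.11.15 and matplotlib 3.10.9. Groups follow the sample titles, and replicates were numbered in the order of deposition.

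Named genes were the members, ASK1, the 3 genes most alike to each member, and up to 4 genes per list and tissue that changed against both controls with a mean of at least 1 CPM; not all are printed. LURE1.3, LURE1.4, LURE1.5, NIP4;1, RIC4, EC1.5, RBCS1A, DYT1, MS1 and GEX2 lie outside this rule and were picked with their values in view. VGD1, VGDH1, TIP1;3, STP6 and EC1.2 lie outside it too. Members and lists were chosen with earlier results of these data known. Count ratios have exact 95% intervals. Alternatives were RLE scaling, DESeq2, no filter, only the libraries compared, the exon-length trend removed, each library left out, Col-0 in place of ASK1 WT in the interaction (added after seeing the data), and ask1 buds replicate 2 with ask1 open flowers replicate 1 left out.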

Additional observations from a re-analysis of the deposited data

Results flagged for a closer look

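In the fit over all 12 libraries, PRK4 and PRK5 passed the test of whether the ask1 difference from ASK1 WT changed between buds and open flowers. With only the compared libraries fitted the interaction was 1.29 for PRK4 and 2.64 for PRK5, and neither passed (edgeR adjusted p = 0.128 and 0.0892). Over all libraries the difference, open flowers minus buds, was 1.43 ± 0.35 on the log2 scale for PRK4 (edgeR adjusted p = 0.0359) and 2.78 ± 0.67 for PRK5 (edgeR adjusted p = 0.0362). PRK4 was at -3.36 in open flowers and -4.80 in buds, and PRK5 at -3.85 in open flowers and -6.63 in buds. PRK5 had 0 and 4 counts in the ask1 bud libraries, so its bud value rests on few reads. With Col-0 in place of ASK1 WT, an alternative chosen after seeing the data, neither passed, with 0.42 ± 0.35 for PRK4 (edgeR adjusted p = 0.507) and 1.85 ± 0.71 for PRK5 (edgeR adjusted p = 0.16). Against Col-0, PRK4 was at -3.54 in open flowers and -3.95 in buds, and PRK5 at -3.92 in open flowers and -5.77 in buds. In ASK1 WT against Col-0 buds PRK4 stood at 0.84 ± 0.20 and PRK5 at 0.86 ± 0.24, and neither passed (edgeR adjusted p = 0.156 and 0.225). Over all alternatives the adjusted p ranged from 0.000481 to 0.507 for PRK4 and from 0.00513 to 0.16 for PRK5.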

How the results depend on the processing

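The count of members that fell in ask1 stayed within 1.5 times of 7 under all alternatives, against either control and in both tissues. For ASK1 WT against Col-0 buds the count, 0 in the fit over all libraries, was 2 with DESeq2, 2 with only the libraries compared, 2 without both ask1 buds replicate 2 and ask1 open flowers replicate 1, and 0 to 2 leaving out 1 library at a time. For the interaction the count, 2 in that fit, was 0 with only the libraries compared, 0 with Col-0 in place of ASK1 WT (chosen after seeing the data), 5 without both libraries and 0 to 5 leaving out 1. Without length scaling, PRK2 made up 60.5% of family counts in ASK1 WT buds, 65.3% in Col-0 buds, 64.7% in ASK1 WT and 65.6% in Col-0 open flowers. With plain library totals the summed PRK level in Col-0 open flowers was 826 CPM, against 882 CPM with TMM. The causes were not tested. Leaving out 1 library turned the sign of 11 values, none of them called. PRK7 ranged from -0.15 to 1.24 in ask1 against Col-0 buds. Against Col-0 buds, ASK1 WT ranged from -1.05 to 0.61 for PRK1 and from -0.79 to 0.60 for PRK7, and against Col-0 open flowers from -0.15 to 0.01 for PRK5. In open flowers against buds PRK7 ranged from -0.35 to 0.08 in ask1, from -0.27 to 0.60 in ASK1 WT and from -0.97 to 0.42 in Col-0, with 0.01 among the ask1 values and 0.09 among those against Col-0 buds. The interaction ranged from -1.24 to 0.04 for PRK6 and from -0.74 to 0.12 for PRK7, which was at 0.29 with Col-0 in place of ASK1 WT.
No paired analysis was possible because the labels give no shared replicate numbers. With 2 libraries per group, and 3 counts of PRK1, 4 of PRK5, 12 of PRK6 and 13 of PRK8 in ask1 buds, depth limits the bud values of these genes.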
